A study of Mus musculus with 6 samples.

Results

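Klk10, Fibin, Otop1 and S100a4 are 4 of the 24421 genes listed in a count table of mouse sciatic nerve RNA, and all 4 were among the 14789 genes with enough reads to be tested. They were chosen from the measured values themselves, as genes with more reads in the libraries labelled cKO than in the wild-type (WT) libraries. The choice also took their counts as not following the amount of skeletal muscle RNA, though Klk10 had the muscle order within WT. The differences of the 4 genes between the groups, and their relation to the muscle genes Acta1 and Ttn, are therefore given as descriptions with no test.

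The series holds 3 libraries of sciatic nerve labelled YAP/TAZ-DBL-cKO, called cKO 1, 2 and 3 here, and 3 labelled YAP/TAZ-WT, called WT 1, 2 and 3. The design text gives 3 mice per group. YAP and TAZ, encoded by Yap1 and Wwtr1, are transcriptional co-activators of the Hippo pathway that act through TEAD factors. Total RNA was extracted with Trizol and RNeasy and made into libraries with the Illumina TruSeq kit. The sources used here do not give the strain, age or sex of the mice, the Cre driver, which part of each gene was deleted, or whether nerves were pooled.

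The members belong to 4 unrelated protein families. Klk10 encodes a kallikrein-related peptidase, one of a family of secreted serine proteases whose genes stand side by side and which act on matrix proteins, other proteases and protease-activated receptors. Fibin encodes a secreted protein described in zebrafish, where it is needed for the start of the pectoral fin bud under retinoic acid and Wnt control. Otop1 encodes a proton-selective ion channel, known in the mouse for the otoconia of the inner ear and for sour taste. S100a4 encodes a small calcium-binding protein with EF hands that binds nonmuscle myosin heavy chain and is often used as a marker of fibroblasts, though macrophages and other immune cells make it too.

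Gene counts came to between 24651262 and 32003497 in the cKO libraries and to between 41270894 and 47044158 in the WT libraries, so every WT library was deeper. A gene with 0 counts could have stood at up to 0.0649 CPM (the count scaled to library size, here with TMM factors) in the deepest library and 0.117 CPM in the shallowest, taking 3 counts as the limit of a 0 and counting error only. The targeted genes gave 120.4, 123.7 and 121.7 CPM for Yap1 in WT 1 to 3 and 108.1, 108.8 and 102.6 CPM in cKO 1 to 3. Wwtr1 gave 275.5, 284.2 and 253.8 CPM in WT and 367.1, 337.4 and 372.0 CPM in cKO, so it was higher in the cKO libraries (log2 0.40 ± 0.09 SE, edgeR adjusted p = 0.0208). That call was lost without cKO 3, WT 1 or WT 2, with adjusted p between 0.0518 and 0.117. Whole genes were counted, so these levels do not check the deletion, and Wwtr1 did not fall. Here cKO means the libraries labelled so throughout. Markers of myelinating Schwann cells were called lower, all 12 of 12 listed (100% against 6.17% of all tested genes), with a median log2 difference of -1.69. WT 3 stood apart from WT 1 and WT 2, its counts differing by a chi-square over degrees of freedom of 65.3 and 67.0, against 17.4 between the other pair. In the cKO group cKO 1 differed from cKO 2 and cKO 3 by 47.5 and 26.7, against 13.4 between cKO 2 and cKO 3. Every library held reads of both Xist, made by female cells, and Ddx3y, made by male cells, which goes against 1 mouse per library. Ddx3y had 37.7 ± 14.8 CPM in WT and 17.8 ± 8.41 CPM in cKO (SD, n = 3), overlapping between the groups and not called (log2 -1.09 ± 0.39 SE, edgeR adjusted p = 0.121), so the sex mix may differ between the groups, and its part in the results was not tested.

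The starts of the 4 genes, which lie on 4 different chromosomes, are shown as a description. That the members rose in the same libraries comes from their choice, and shared regulation was not tested. The windows run from 250 bases before to 50 bases after the start in RefSeq on GRCm38.p6, and a window was found for 4 of 4 members. The Klk10 window lies at chr7:43780804-43781103 on the plus strand, that of Fibin at chr2:110362944-110363243 on the minus strand, that of Otop1 at chr5:38277154-38277453 on the plus strand and that of S100a4 at chr3:90603520-90603819 on the plus strand. Capitals mark the only match found among the 3 motifs searched.
Klk10: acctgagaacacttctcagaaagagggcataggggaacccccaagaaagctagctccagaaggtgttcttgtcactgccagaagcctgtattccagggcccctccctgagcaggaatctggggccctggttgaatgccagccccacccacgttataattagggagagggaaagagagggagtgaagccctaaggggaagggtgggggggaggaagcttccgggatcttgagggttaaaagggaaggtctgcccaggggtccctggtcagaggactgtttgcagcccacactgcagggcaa
Fibin: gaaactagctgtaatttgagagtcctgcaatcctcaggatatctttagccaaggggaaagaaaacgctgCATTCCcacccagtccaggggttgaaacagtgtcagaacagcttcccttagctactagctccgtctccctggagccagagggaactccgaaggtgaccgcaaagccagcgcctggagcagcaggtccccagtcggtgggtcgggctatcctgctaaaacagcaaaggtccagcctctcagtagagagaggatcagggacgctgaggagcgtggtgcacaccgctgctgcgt
Otop1: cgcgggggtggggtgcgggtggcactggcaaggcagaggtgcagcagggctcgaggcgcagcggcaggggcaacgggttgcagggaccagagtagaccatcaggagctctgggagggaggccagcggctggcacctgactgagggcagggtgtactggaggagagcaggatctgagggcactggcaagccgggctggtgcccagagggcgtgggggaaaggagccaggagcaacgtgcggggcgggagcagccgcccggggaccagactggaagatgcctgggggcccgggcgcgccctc
S100a4: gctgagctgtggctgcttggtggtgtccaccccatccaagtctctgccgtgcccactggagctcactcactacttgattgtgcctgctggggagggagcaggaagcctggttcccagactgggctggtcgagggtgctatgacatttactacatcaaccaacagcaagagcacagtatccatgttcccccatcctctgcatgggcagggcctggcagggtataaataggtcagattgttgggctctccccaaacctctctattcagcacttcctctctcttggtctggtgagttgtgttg
The motifs were the TEAD core GGAATG, the AP-1 site TGANTCA and the EGR site GCGNGGGCG, each searched on both strands. The Fibin window held CATTCC, the reverse complement of the TEAD core, with its first base 181 bases before the RefSeq start. The annotations differ on where these genes start: the GENCODE M21 start lies 190 bases upstream of the RefSeq start for Fibin, 1432 for Otop1 and 19 for Klk10, and the S100a4 starts are 1 base apart. By GENCODE the Fibin match therefore lies inside the exon, 9 bases after its start, and the whole Otop1 window lies inside the gene. Of 32851 promoter windows of the same length in the RefSeq table, 14.7% held the TEAD core, 7.81% the AP-1 site and 5.55% the EGR site. The windows of Klk10, Otop1 and S100a4 held none of these letters. GC content was 57.3% for Klk10, 56.3% for Fibin, 71.7% for Otop1 and 55.3% for S100a4. All windows had a median GC of 52.7%, with the 5th and 95th percentiles at 36.3% and 73.7%, so the Otop1 window lay near the upper end.

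Klk10 (ENSMUSG00000030693.10) lies on chromosome 7 from 43781035 to 43785410 on the plus strand of GRCm38, with 6 exons and 1373 exon bases in GENCODE M21. It had 96, 39 and 50 counts in WT 1, 2 and 3 and 1107, 649 and 893 counts in cKO 1, 2 and 3. These are levels of 2.08, 0.975 and 1.26 CPM in WT and 33.4, 25.3 and 28.0 CPM in cKO. Every cKO library lay far above every WT library, with the lowest cKO level 12.2 times the highest WT level. The mean went from 1.44 ± 0.572 to 28.9 ± 4.12 CPM (SD, n = 3 each), a log2 difference of 4.32 ± 0.26 (SE) or 19.9-fold, the 12th largest rise of the 14789 tested genes. In these bulk samples more cells that make a transcript and more of it per cell cannot be told apart.

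Klk10 thus moved from the lower part of the tested genes to the upper part. Its level per kilobase of exon was 1.05 CPM per kb in WT, above 23.1% of the 14234 tested genes with a known length. In cKO it was 21.0 CPM per kb, above 84.0% of them. Within groups Klk10 had a pooled SD of 0.40 on the log2 scale, against a median of 0.24 over 1344 genes of like level. Like level means a like mean log2 CPM over all 6 libraries, which for Klk10 lay between its groups. The spread was mostly in WT, where WT 1 had 2.13 times the level of WT 2. The annotated gene 2310002F09Rik overlaps Klk10 on the other strand but shares 0 exon bases with it.

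Otop1 (ENSMUSG00000051596.13) lies on chromosome 5 from 38275972 to 38304217 on the plus strand, with 8 exon blocks and 3442 exon bases. It had 4, 8 and 4 counts in the WT libraries and 142, 126 and 198 counts in the cKO libraries. The levels were 0.0865, 0.200 and 0.101 CPM in WT, little above the limit of a 0, and 4.28, 4.91 and 6.22 CPM in cKO. The groups lay far apart, and the lowest cKO level was 21.4 times the highest WT level. Otop1 passed the filter on low counts only through its cKO libraries, so among tested genes it had to differ.

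The mean level of Otop1 went from 0.129 ± 0.0618 to 5.14 ± 0.988 CPM (SD, n = 3 each). The fitted log2 difference was 5.29 ± 0.38 (SE) or 39.2-fold, the 4th largest rise among tested genes. With so few WT reads the size of that fold is loose: 16 counts in all WT libraries against 466 in all cKO libraries give a rate ratio of 44.1, with an exact 95% interval of 26.8 to 77.7 that covers counting error only. The pooled SD of 0.37 on the log2 scale was below the median of 0.49 for the 766 genes of like level. Otop1 had that level, a mean over all 6 libraries, in neither group, so its spread is not called small. Even in cKO Otop1 was a low transcript, at 1.49 CPM per kb, above 26.8% of tested genes, against 0.0375 CPM per kb and 0.8% in WT.

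Fibin (ENSMUSG00000074971.4) lies on chromosome 2 from 110360917 to 110363183 on the minus strand as a single exon of 2267 bases, with no overlapping gene. It had 687, 465 and 458 counts in WT and 3013, 1479 and 2324 counts in cKO. The levels were 14.9, 11.6 and 11.5 CPM in WT and 90.9, 57.6 and 73.0 CPM in cKO. The groups did not overlap, and the lowest cKO level was 3.88 times the highest WT level. The mean went from 12.7 ± 1.90 to 73.8 ± 16.6 CPM (SD, n = 3 each), a log2 difference of 2.54 ± 0.18 (SE) or 5.82-fold, rank 100 of the tested genes.

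Per kilobase, Fibin stood at 5.59 CPM in WT, above 54.9% of tested genes, and at 32.6 CPM in cKO, above 89.4%. In cKO it was the most variable of the 4 in relative terms, with cKO 1 at 1.58 times cKO 2. Its pooled log2 SD of 0.27 compares with a median of 0.14 over 2751 genes of like level.

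S100a4 (ENSMUSG00000001020.8) lies on chromosome 3 from 90603771 to 90606045 on the plus strand, with 3 exon blocks and 584 exon bases. Of these, 302 are shared in GENCODE with the same-strand gene Gm42674, a gene with no row in the count tables. S100a4 had 2816, 2766 and 2548 counts in WT and 6037, 3205 and 4775 counts in cKO. The levels were 60.9, 69.1 and 64.2 CPM in WT and 182.0, 124.8 and 150.0 CPM in cKO. The WT libraries were tight, the cKO libraries spread by 1.46 times, and the groups did not overlap.

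The mean level of S100a4 went from 64.8 ± 4.14 to 152.3 ± 28.7 CPM (SD, n = 3 each), a log2 difference of 1.23 ± 0.13 (SE) or 2.35-fold, rank 559. It was the smallest rise of the 4 and the gene already abundant in WT nerve. At 111 CPM per kb in WT S100a4 lay above 97.2% of tested genes, and at 261 CPM per kb in cKO above 98.9%.

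**Figure D1:**
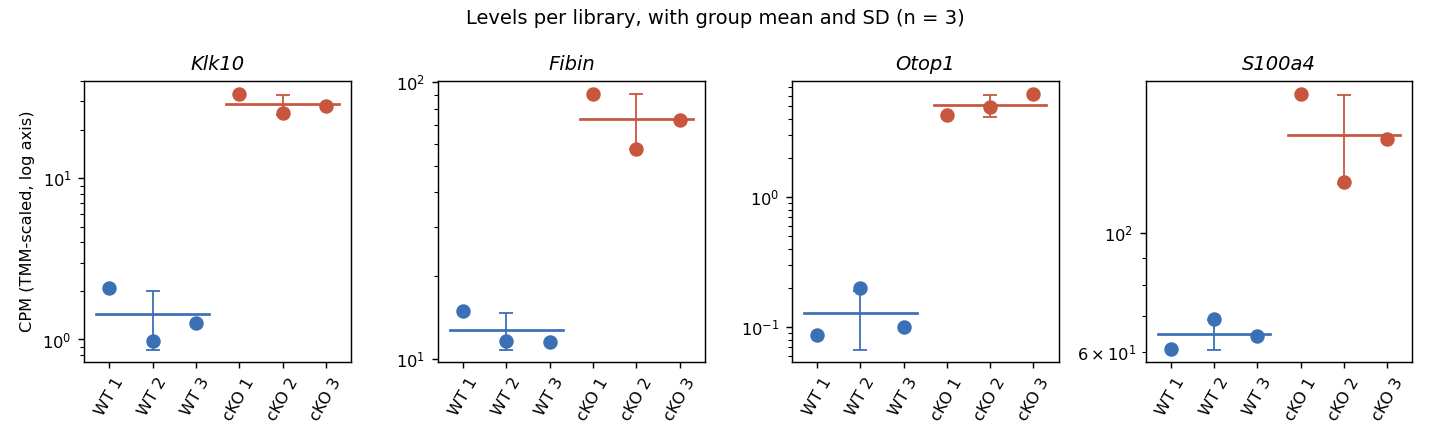
Level of Klk10, Fibin, Otop1 and S100a4 in each library, in CPM on a logarithmic axis, by group, with points for libraries and bars for the mean and SD of 3 libraries. In each panel the 3 cKO points lie above the 3 WT points, with mean levels of 28.9 against 1.44 CPM for Klk10 and 152.3 against 64.8 CPM for S100a4.

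Ordered by level per kilobase, the 4 genes in WT ran S100a4, Fibin, Klk10 and Otop1, at 111 ± 7.08, 5.59 ± 0.836, 1.05 ± 0.417 and 0.0375 ± 0.018 CPM per kb (SD, n = 3 each), each gap larger than the SDs. In cKO the order was the same, at 261 ± 49.1, 32.6 ± 7.34, 21.0 ± 3.00 and 1.49 ± 0.287 CPM per kb (SD, n = 3 each). Fibin and Klk10 were closest there, and their intervals of mean ± SD nearly touched. All 4 members had groups that did not overlap, as did 15.3% of all tested genes in that direction. The choice of the members fixes that count, so nothing is read from it.

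The members also differed in which cKO library was highest. Klk10, Fibin and S100a4 had the order cKO 1, cKO 3, cKO 2. Otop1 had the order cKO 3, cKO 2, cKO 1, so it was lowest in the library where the other members were highest. Over all 6 libraries the mean-centred log2 CPM of Klk10 and Otop1 lay closest, with a root mean square difference of 0.65, followed by Fibin and S100a4 at 0.67. Otop1 and S100a4 lay farthest apart at 1.85. This distance takes in the size of the group difference, on which the members were chosen, so no shared pattern is read from it.

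Skeletal muscle RNA was higher in the cKO libraries as well, and this was the reference the choice of members used. Acta1, skeletal muscle actin, had 509.6, 133.8 and 378.6 CPM in WT and 1237.9, 2717.0 and 1530.1 CPM in cKO. Ttn, the giant sarcomere protein titin, had 35.4, 9.35 and 27.8 CPM in WT and 108.7, 157.4 and 153.5 CPM in cKO. Both were lowest in WT 2 and highest in cKO 2. Of 20 listed muscle genes 18 were called higher, 90% against 4.77% of all tested genes. The summed level of the list went from 553 to 2103 CPM in WT to 5583 to 11670 CPM in cKO.

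Within the cKO group Klk10, Fibin and S100a4 were each lowest in cKO 2, the library with the most Acta1 and Ttn. The members were chosen as not following muscle RNA, so these orders are described and nothing is read from them. For Klk10 the log2 level over the WT mean was 4.55, 4.15 and 4.30 in cKO 1, 2 and 3, where Acta1 gave 2.07, 3.20 and 2.37. For Otop1 it was 4.6, 4.8 and 5.14, which neither rose nor fell with Acta1 throughout. Within the WT group the picture differed by gene. Klk10 was highest in WT 1 and lowest in WT 2, the same order as Acta1 and Ttn. Otop1 and S100a4 were highest in WT 2, where muscle RNA was lowest. The Otop1 order rests on 4, 8 and 4 counts, and the S100a4 levels in WT spread by only 1.13 times. Fibin was highest in WT 1, with WT 2 and WT 3 close together at 11.6 and 11.5 CPM.

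Set against muscle reads, Klk10 and Otop1 were higher in every cKO library than in any WT library, and Fibin and S100a4 were not. Per 1000 Acta1 reads, Klk10 had 4.08, 7.29 and 3.33 reads in WT and 27.0, 9.30 and 18.3 reads in cKO. Otop1 had 0.170, 1.49 and 0.266 reads in WT and 3.46, 1.81 and 4.06 reads in cKO. For both genes the gap between WT 2 and cKO 2 was small.
Fibin had 29.2, 86.9 and 30.5 reads per 1000 Acta1 reads in WT and 73.4, 21.2 and 47.7 in cKO, so the groups overlapped. S100a4 had 120, 517 and 170 in WT and 147, 45.9 and 98.0 in cKO, with the highest value in WT 2. Per 1000 Ttn reads the groups again did not overlap for Klk10 and Otop1 and overlapped for Fibin, at 366 to 836 in cKO and 415 to 1240 in WT. S100a4 then had 793 to 1670 reads in cKO, below the 1720 to 7400 reads of every WT library. A rise in muscle RNA larger than that of S100a4 lowers such a ratio by itself. Acta1 and Ttn rose 5.37- and 5.77-fold, against 19.9-fold for Klk10, 39.2-fold for Otop1, 5.82-fold for Fibin and 2.35-fold for S100a4. The members were chosen on their rise, which largely sets these ratios, so nothing about muscle is read from them.

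**Figure D2:**
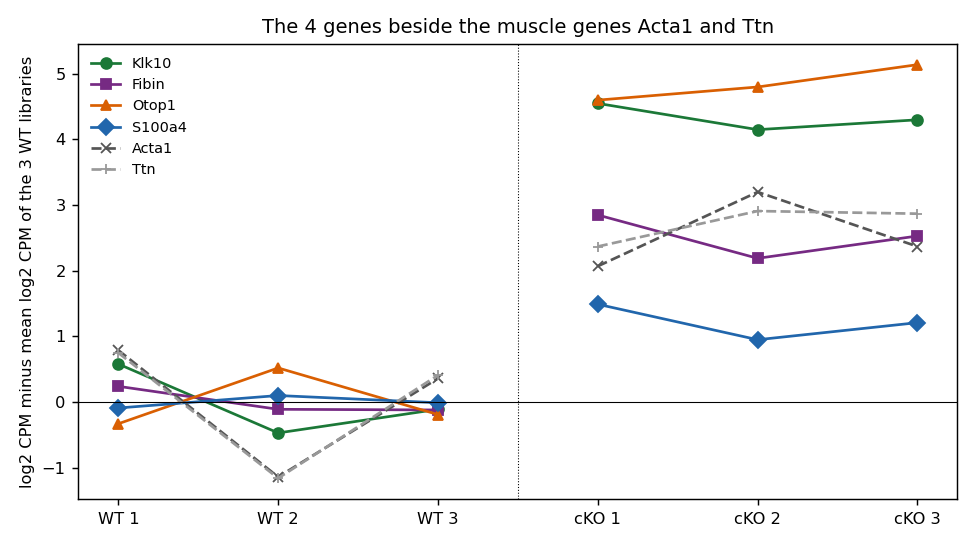
Log2 CPM of each member and of Acta1 and Ttn (dashed) in each library, minus the mean log2 CPM of the 3 WT libraries, with lines joining the libraries of a group only as a guide to the eye. In cKO 2 Acta1 is at its highest, 3.20, and Klk10, Fibin and S100a4 are at their lowest among the cKO libraries, at 4.15, 2.19 and 0.95.

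The muscle level, the mean log2 CPM of Acta1 and Ttn, was 5.15 to 7.07 in WT and 8.52 to 9.35 in cKO. With it as a covariate in the edgeR fit, the log2 difference was 3.62 ± 0.55 (SE) for Klk10, 2.56 ± 0.41 for Fibin, 6.29 ± 0.98 for Otop1 and 1.68 ± 0.28 for S100a4. All 4 stayed positive, with standard errors at least 2 times those without the covariate. The muscle level split the groups completely, so muscle RNA and genotype cannot be told apart over the 6 libraries, and in that fit 0 of 14789 genes were called in either direction. Values within each group, given above, rest on 3 libraries.

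Klk10 was compared with its family because kallikrein genes are neighbours. Of 25 other kallikrein genes listed, 16 had 0 counts in every library, and 2 had enough reads to be tested. The Klk1b genes are near-identical copies whose reads the counting may have set aside, so their zeros are uncertain. Klk8, neuropsin, a secreted protease known in brain and skin, had 2.7, 2.95 and 3.3 CPM in WT and 13.1, 9.39 and 11 CPM in cKO. Klk8 rose in 3 of 3 cKO libraries, from 2.99 ± 0.300 to 11.2 ± 1.86 CPM (SD, n = 3), a log2 difference of 1.90 ± 0.19 (SE, 3.74-fold, edgeR adjusted p = 0.00061). Klk8 was 1 of the 4.77% of tested genes (706 of 14789) called higher in cKO, and 6.17% (912) were called lower.

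Klk8 is also the nearest tested gene to Klk10, on the same strand of chromosome 7 from 43797577 to 43803826, 12.2 kb away. Klk9 lies between the genes, from 43791891 to 43796757, and had 0 counts in each WT library and 6, 1 and 3 counts in cKO, too few to test. Klk11, on the other side, had 0 counts in all 6 libraries. Klk14, a trypsin-like kallikrein 85.5 kb away, had 4, 8 and 4 counts in WT and 11, 11 and 10 in cKO and did not pass (log2 1.45 ± 0.57, adjusted p = 0.153). Per kilobase Klk10 lay below Klk8 in WT, at 1.05 against 1.94 CPM, and above it in cKO, at 21.0 against 7.24 CPM. With the muscle covariate Klk8 kept a log2 difference of 2.17 and was not called (adjusted p = 0.191).

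The wider network of serine proteases, their inhibitors and receptors held 20 tested genes, of which 5 rose (25%) and 1 fell (5%), with a median log2 difference of 0.43 against 0.02 over all tested genes. Serpine2, protease nexin 1, an inhibitor of thrombin and plasminogen activators, had 482.1, 557.0 and 421.5 CPM in WT and 801.8, 701.0 and 761.2 CPM in cKO (log2 0.63 ± 0.12 SE, edgeR adjusted p = 0.0108). Tmprss5, a membrane-bound serine protease, had 61.7, 61.6 and 50.5 CPM in WT and 92.3, 83.9 and 84.1 CPM in cKO (log2 0.58 ± 0.10, adjusted p = 0.00799). F2r, the thrombin receptor, Plaur, the urokinase receptor, and Htra3, a secreted protease, rose by 0.40, 0.77 and 0.60 on the log2 scale (adjusted p = 0.0343, 0.0366 and 0.0423).

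The gene of that network that fell was Spint1, a membrane-bound Kunitz inhibitor of trypsin-like proteases such as matriptase and hepsin. It had 8.16, 8.37 and 15.3 CPM in WT and 1.09, 2.38 and 1.63 CPM in cKO, a log2 difference of -2.65 ± 0.35 (SE, edgeR adjusted p = 0.00243). All of its cKO libraries lay below all WT libraries. F2rl1, the protease-activated receptor on which kallikreins are known to act, did not pass (log2 0.69 ± 0.36, adjusted p = 0.281).
The number of network genes called higher depended on single libraries. It was 3 without cKO 1, 2 without cKO 2, 1 without cKO 3, 1 without WT 1, 2 without WT 2 and 10 without WT 3. Tmprss5 and Spint1 stayed called in all 6 of these fits, Serpine2 was lost without cKO 3 or WT 1 (adjusted p 0.0515 to 0.0616), and F2r, Plaur and Htra3 were each called only without WT 3, with adjusted p of 0.0743 to 0.164 otherwise.

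S100a4 was set beside its family, most of whose genes lie in the same cluster on chromosome 3. Since S100a4 was chosen for its rise, its difference from the family was not tested. Over all tested genes 10.9% were called in either direction, so 0 calls in a short list are not read as a result. Of the other 15 listed S100 genes 11 were tested and 0 were called by edgeR in either direction, with 2 at an unadjusted p under 0.05, 1 called by DESeq2 and 0 by limma-voom. Their median log2 difference was 0.22, within a range of -0.57 for S100a3 to 0.94 for S100a8 and S100a9. S100a16 had a log2 difference of 0.33 ± 0.11 (SE, edgeR adjusted p = 0.1), and S100a9, a neutrophil protein, 0.94 ± 0.36 (adjusted p = 0.147). S100b, the glial S100 protein used as a Schwann cell marker, had 0.27 ± 0.19 (adjusted p = 0.436) with all libraries and was called higher without WT 3 (adjusted p = 0.00597).

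In level per kilobase S100a4 changed its place in the family. In WT the order was S100a11 at 610 CPM per kb, S100a6 at 465, S100a10 at 295, S100b at 168 and S100a4 at 111. In cKO S100a11 was at 623, S100a6 at 452, S100a10 at 344, S100a4 at 261 and S100b at 203. S100a4 thus passed S100b, with 261 ± 49.1 CPM per kb (SD, n = 3).

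**Figure D3:**
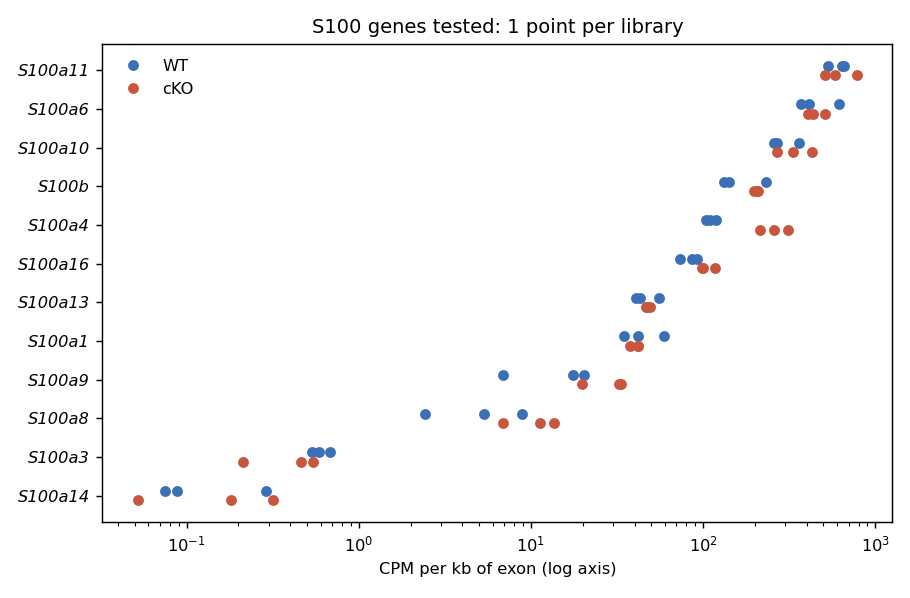
Level per kilobase of exon of each tested S100 gene in each library, in CPM per kb on a logarithmic axis, with WT and cKO libraries marked separately. S100a4 goes from 111 to 261 CPM per kb on average, while S100a11 stays at 610 and 623 and S100a6 at 465 and 452.

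The proteins that S100a4 or its relatives bind form a short list too. With 10.9% of all tested genes called in either direction, 0 calls there are not read as a result. Of 12 tested partners and receptors 0 passed in edgeR, with 3 at an unadjusted p under 0.05, 2 called by DESeq2 and 1 by limma-voom, and a median log2 difference of 0.12. Myh9, nonmuscle myosin IIA, the main known target of S100a4, had 240.2 ± 11.2 CPM in WT and 258.8 ± 39.7 CPM in cKO (SD, n = 3, log2 0.11 ± 0.12 SE, edgeR adjusted p = 0.65). Anxa1, a calcium-dependent membrane-binding protein that pairs with S100a11, had 80.2 ± 25.2 CPM in WT and 125.3 ± 12.7 CPM in cKO (log2 0.64 ± 0.19, adjusted p = 0.0678), and it was called higher without WT 3 (adjusted p = 0.00181). Ager and Tlr4, receptors for extracellular S100 proteins, had log2 differences of 0.44 ± 0.33 and 0.30 ± 0.26 and were not called.

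The other otopetrins were at or near 0 in these nerves. Otop3 had 0 counts in all libraries, and Otop2 had 0, 1 and 7 counts in WT and 0, 0 and 1 in cKO. Of 13 listed proton channels and acid sensors 6 were tested and 0 were called by edgeR, with 0 at an unadjusted p under 0.05 and 0 called by DESeq2 or limma-voom. Against 10.9% of all tested genes called in either direction, 0 of 6 is not read as a result. Hvcn1, the voltage-gated proton channel of immune cells, had 2.73, 2.42 and 3.38 CPM in WT and 4.31, 4.09 and 3.64 CPM in cKO (log2 0.50 ± 0.22 SE, edgeR adjusted p = 0.211). Its groups did not overlap but the test was not passed.

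For Fibin, genes of the limb bud and of retinoic acid signalling were looked at, since zebrafish fibin acts there. Of 20 tested genes 2 rose (10%) and 1 fell (5%), near the 4.77% and 6.17% of all tested genes, with a median log2 difference of 0.16. The genes below are given as values and not as a result about the list. Rara, a retinoic acid receptor, had 37.3, 36.1 and 32.8 CPM in WT and 51.4, 52.6 and 48.1 CPM in cKO (log2 0.52 ± 0.09 SE, edgeR adjusted p = 0.00808). Stra6, the membrane receptor for retinol-binding protein, had 6.69, 4.97 and 7.08 CPM in WT and 10.9, 10.6 and 9.86 CPM in cKO (log2 0.74 ± 0.17, adjusted p = 0.0265).

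Crabp1, which binds retinoic acid in the cytoplasm, fell from 10.4, 10.5 and 9.25 CPM to 5.43, 4.52 and 4.93 CPM (log2 -1.02 ± 0.16 SE, edgeR adjusted p = 0.00476). Rara and Crabp1 stayed called in each of the 6 fits without 1 library. Of these fits Stra6 was called only in that without WT 3, with adjusted p of 0.0724 to 0.0875 in the other 5 fits, so that the list held 1 gene called higher without cKO 1, cKO 3, WT 1 or WT 2 and 5 without WT 3. Tbx5, the forelimb factor whose expression in the zebrafish fin bud needs fibin, had at most 4 counts in a library and was not tested, and Wnt2b had 0.13 ± 0.29 (adjusted p = 0.848).

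The neighbourhood of each member was described from the 5 nearest tested genes on each side. Of these 40 genes 4 rose (10%) and 1 fell (2.5%), against 4.77% and 6.17% of all tested genes. Besides Klk8 these were Ano3, a membrane protein of the anoctamin family next to Fibin at 292 kb (log2 1.56 ± 0.43 SE, edgeR adjusted p = 0.0487), and Lyar, a nucleolar protein 41.7 kb from Otop1 (0.45 ± 0.10, adjusted p = 0.0207). Hs3st1, a heparan sulfate sulfotransferase 1310 kb from Otop1, rose by 1.08 on the log2 scale (adjusted p = 0.0293). Lin7c, a scaffold protein 460 kb from Fibin, fell by 0.37 (adjusted p = 0.019).

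Around S100a4 0 of 10 neighbours were called, with 2 at an unadjusted p under 0.05, 1 called by DESeq2 and 0 by limma-voom. Klk8 was the sole neighbour called in every fit without 1 library. Ano3 was called in none of them (adjusted p 0.0586 to 0.186), Hs3st1 only without WT 3 (otherwise 0.0676 to 0.123), Lyar only without WT 1 or WT 3 (otherwise 0.0518 to 0.0909), and Lin7c was lost without cKO 2, cKO 3 or WT 2 (0.0725 to 0.0777). The count of neighbours called higher was 1 without cKO 1, cKO 2, cKO 3 or WT 2 and 2 without WT 1.

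**Figure D4:**
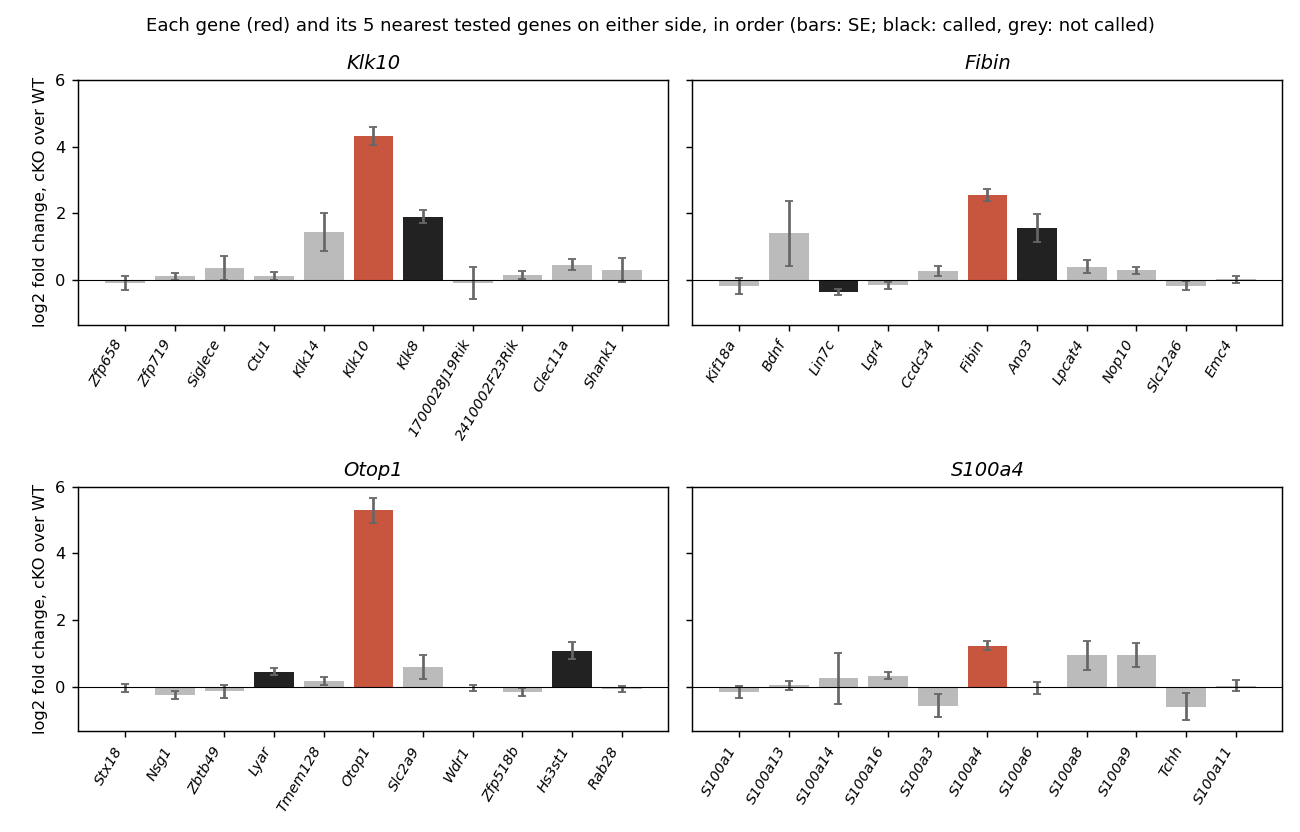
Log2 difference between cKO and WT for the 5 nearest tested genes on each side of each member, by their order from the member, with SE bars, the member in red in the middle, called genes in black and others in grey. The members lie at 4.32, 2.54, 5.29 and 1.23, and of the 40 neighbours 4 are called higher and 1 lower.

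The genes with the most similar pattern were those with the smallest root mean square difference of mean-centred log2 CPM over the 6 libraries, among genes averaging log2 CPM 1 or more. They were chosen for that pattern and are described only. The distance takes in the size of the group difference, so genes of like fold tend to lie close. The counts within 0.5 below depend on that size too. For Klk10 they were Myog, a transcription factor of muscle differentiation, at 0.73, Piwil4 at 0.81, Sln, a regulator of the muscle calcium pump, at 0.87, and Actn2, a Z-disc protein, at 0.88. 0 genes lay within 0.5. Myog had 4.41, 1.05 and 3.05 CPM in WT and 17.8, 34.0 and 24.3 CPM in cKO, so its order in WT was that of Klk10, and its order in cKO was the reverse. For Otop1 the nearest gene was Klk10 at 0.65, then Myog at 1.19, and again 0 genes lay within 0.5.

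For Fibin the nearest genes were Prkg2, a cGMP-dependent protein kinase, at 0.27, Slc1a1, a glutamate transporter, at 0.28, Ephb1, an ephrin receptor, at 0.36 and Tmem26 at 0.37, and 18 genes lay within 0.5. For S100a4 they were Nptx2, a secreted pentraxin of neurons, at 0.15, Snx16, a sorting nexin, at 0.16, and Basp1 and Ceacam2, both at 0.17. As many as 1239 genes lay within 0.5 of S100a4. Snx16 had 81.1, 82.9 and 68.0 CPM in WT and 176.2, 141.3 and 146.4 CPM in cKO, with cKO 1 highest as for S100a4.

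Markers of other cells in the nerve or beside it were set next to the members, and their part in the results was not tested. None of the listed markers below was at 0 in every library. Over all tested genes 10.9% were called in either direction, so 0 calls in lists this short are not read as results. For S100a4, fibroblast markers summed to 22660 to 30600 CPM in WT and 26160 to 28090 CPM in cKO, so the groups overlapped, and of 12 genes 3 rose (Thy1, Pi16 and Clec3b, 25% against 4.77% of all tested genes), or 1 in each fit that left out a library other than WT 3 and 6 without WT 3. Macrophage markers summed to 465 to 631 CPM in WT and 575 to 598 CPM in cKO, and 0 of 12 were called by edgeR, with 4 at an unadjusted p under 0.05, 1 called by DESeq2, 0 by limma-voom and 5 without WT 3. Neutrophil markers summed to 8.27 to 29.1 CPM in WT and 28.7 to 42.2 CPM in cKO, and 0 of 9 were called by edgeR, with 2 at an unadjusted p under 0.05, 1 called by DESeq2, 0 by limma-voom and 1 without WT 1.

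Mast cell markers went from 79.6 to 102 CPM in WT to 115 to 235 CPM in cKO and were highest in cKO 1, as were Klk10, Fibin and S100a4. The sums of fibroblast, perineurial, tendon and cartilage, and neuronal markers were highest in cKO 1 too. In WT the mast cell sum was lowest in WT 1, where Klk10 and Fibin were highest and S100a4 was lowest. Of 7 tested, 2 rose (Tpsb2 and Mcpt4, 28.6% against 4.77% of all tested genes), or 1 without cKO 1 or WT 2, 4 without cKO 2 and 0 without cKO 3 or WT 1.

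For Klk10, which is known from skin and other epithelia, epidermal markers summed to 12.1 to 17.0 CPM in WT and 14.2 to 17.2 CPM in cKO. Of 7 tested 0 were called by edgeR, with 1 at an unadjusted p under 0.05, 1 called by DESeq2, 0 by limma-voom and 1 without cKO 3. For Otop1, brown fat markers summed to 13 to 25.5 CPM in WT and 47.8 to 79.0 CPM in cKO, and of 6 tested 3 rose (Cox8b, Cidea and Ppargc1a, 50% against 4.77% of all tested genes), or 1 without cKO 2 and 5 without WT 3. Ppargc1a was called only without WT 3, with edgeR adjusted p of 0.0972 to 0.137 in the other fits. The summed level was highest in cKO 2 and lowest in WT 2, like Acta1. Cox8b, which muscle also expresses, had 7.66, 2.02 and 7.03 CPM in WT and 23.0, 37.6 and 20.1 CPM in cKO, highest in cKO 2 and lowest in WT 2 like Acta1. With the level of Acta1 and Ttn as a covariate the log2 difference of Cox8b was -0.2 and that of Cidea -0.08, and neither was called. Ucp1, the uncoupling protein of brown fat, was not tested and had 3, 0 and 3 counts in WT and 8, 55 and 41 counts in cKO. Ucp1 was lowest in cKO 1, as were Otop1, Acta1 and Ttn. It was highest in cKO 2, like Acta1 and Ttn, whereas Otop1 was highest in cKO 3.

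White fat, endothelial and neuronal markers had 0 of 9, 0 of 10 and 0 of 8 tested genes called by edgeR, with 0, 2 and 2 at an unadjusted p under 0.05 and 0 called by DESeq2 or limma-voom. Without WT 3, however, 9 white fat and 6 endothelial genes were called higher. Pericyte and smooth muscle markers had 2 of 10 called higher (Des and Cspg4, 20% against 4.77% of all tested genes). That count was 1 without cKO 3 and 8 without WT 3. The part of muscle RNA in the Des call was not tested. Tendon and cartilage markers had 2 of 8 called higher (Col2a1 and Acan, 25% against 4.77%), or 2 without cKO 2 and 1 without any other library. Perineurial markers had 2 of 10 called lower (Itgb4 and Sfrp5, 20% against 6.17% of all tested genes). That count was 0 without cKO 3 and 1 without cKO 1, WT 2 or WT 3. Markers of immature or nonmyelinating Schwann cells had 3 of 12 called higher and 3 called lower (25% each, against 4.77% and 6.17%). These counts moved by at most 1 without any library.

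Across the settings tried, each member stayed higher in cKO. Leaving out 1 library at a time gave log2 differences of 4.10 to 4.66 for Klk10, 2.36 to 2.69 for Fibin, 5.03 to 5.73 for Otop1 and 1.08 to 1.36 for S100a4. The highest value for Otop1 came without WT 2, the library that held 8 of its 16 WT counts. Scaling to library totals alone moved the median of all tested genes by 0.125 on the log2 scale, small beside each of these values.

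**Figure D5:**
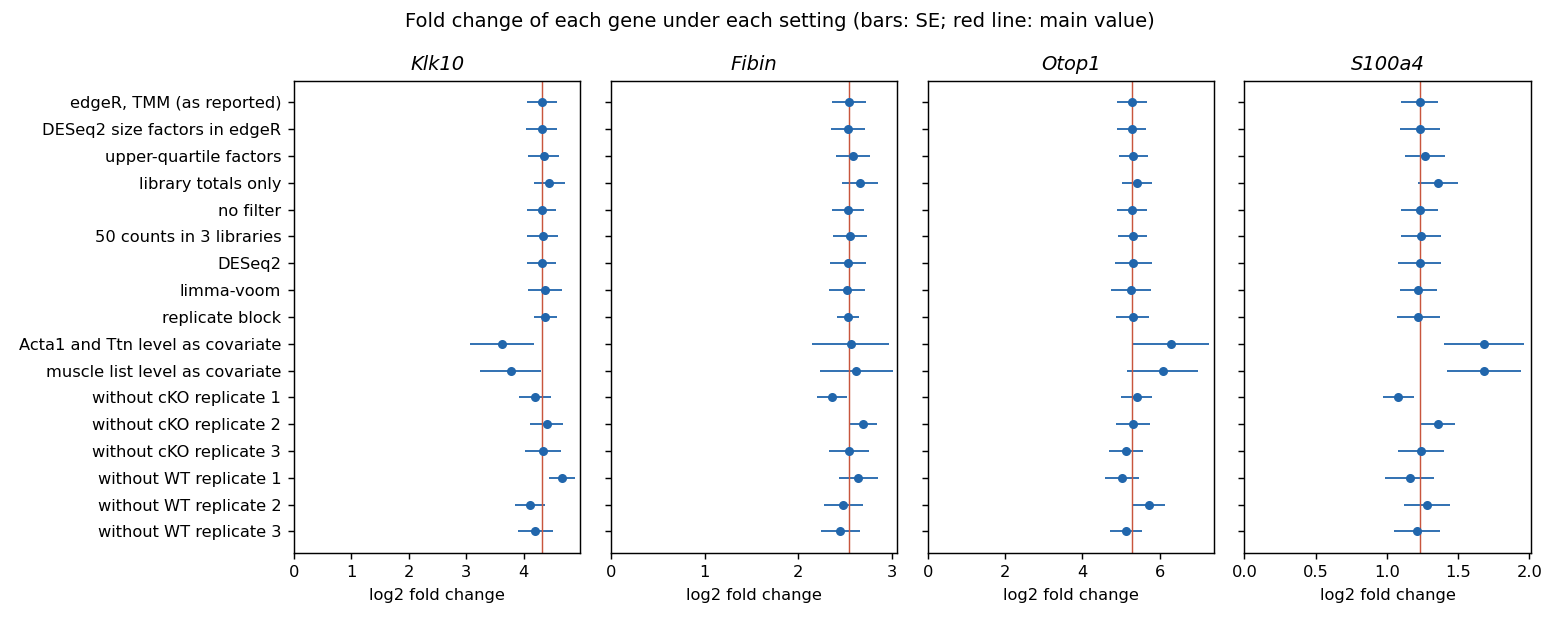
Log2 difference between cKO and WT for each member under each processing setting and without each library, with SE bars. The values stay between 3.62 and 4.66 for Klk10, 2.36 and 2.69 for Fibin, 5.03 and 6.29 for Otop1 and 1.08 and 1.68 for S100a4.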

How the data were processed

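RNA of mouse sciatic nerve was measured in 3 cKO and 3 WT libraries, each group as the sample titles label it. The authors deposited raw read counts per gene symbol, 1 table per library with no normalization. TopHat2 2.0.13, HTSeq and mm10 were used per the submitters' processing notes. The annotation and strand option used in counting are not given in the sources, so overlapping genes cannot be told apart by strand. The 5 closing HTSeq lines per table entered neither library sizes nor tests. Of all counts, 12.07% to 14.26% fell in no gene and 1.635% to 2.818% were ambiguous.

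In R 4.3.3, edgeR 4.0.16 compared the counts by its quasi-likelihood F test with TMM factors over all 6 libraries. Genes were kept by filterByExpr with a minimum count of 10, and p-values were adjusted by Benjamini-Hochberg over all 14789 tested genes, with calls at adjusted p under 0.05. The p-values measure the spread between these libraries. SE is the log2 difference over the square root of F. Log2 CPM had a prior count of 2. Exon lengths came from GENCODE M21 by symbol, found for 23336 of 24421 symbols (95.6%). The steps were checked on simulated counts. Of genes changed there by log2 0.5, 1, 2 and 4, 20%, 65.3%, 91.7% and 100% were called, as were 0.125% of unchanged genes. A gene not called may therefore still differ by log2 1 or less. Libraries of a group differed beyond counting noise (chi-square over degrees of freedom 13.4 or more), so none was a second copy of another.

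The members, the gene lists and the tests were chosen with earlier results of these data known. Named were the members, Acta1, Ttn, Yap1, Wwtr1, the tested relatives and neighbours, up to 6 genes by p of other family lists, up to 4 of each cell type list, and the 4 genes most like each member in pattern. Klk9, Klk11, Otop2, Otop3, Tbx5, Wnt2b, F2rl1, Ager, Tlr4, Myh9, Ucp1, Xist and Ddx3y were named outside that rule, after their values were seen. Alternatives were other scalings and filters, DESeq2 1.42.0, limma-voom (limma 3.58.1), a replicate block, muscle covariates, and leaving out each library. The result of 1 cell type list is not reported here.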

Additional observations from a re-analysis of the deposited data

How the results depend on the processing

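The log2 difference of Fibin moved by less than its replicate spread in every setting. With the level of Acta1 and Ttn, then of the muscle list, as covariate, Klk10 was at 3.62 and 3.77, Otop1 at 6.29 and 6.08 and S100a4 at 1.68 and 1.68. With those covariates in the same order, 0 and 1 genes were called higher and 0 and 9 lower over all genes, 0 and 0 in every family list and among the neighbours, and 0 and 1 higher and 0 and 2 lower over all cell type lists. The T cell gene Cd3g then turned to -0.34 and -0.00058, Cox8b to -0.2 and -0.0029, and Cidea to -0.08 with the first. The groups do not overlap in muscle level, which leaves little to fit.

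Without 1 library at a time the log2 difference ran from 4.10 to 4.66 for Klk10, 2.36 to 2.69 for Fibin, 5.03 to 5.73 for Otop1 and 1.08 to 1.36 for S100a4. Genes called higher then ran from 276 to 1075 (706 with all) and lower from 459 to 1120 (912 with all), and neighbours from 1 to 4 higher and 0 to 1 lower. Higher calls ran from 1 to 10 in the serine protease network, 0 to 1 in the S100 family and among S100 partners, 1 to 5 among limb bud and retinoic acid genes, 3 to 18 over all family lists and 24 to 68 over all cell type lists, the highest without WT 3.

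Scaling to library totals called 1273 genes higher and 606 lower, 7 neighbours higher and 0 lower, 8 network genes, 1 S100 gene, 2 S100 partners and 4 limb bud and retinoic acid genes higher, and 16 family genes in all. DESeq2 called 1 S100 gene and 1 S100 partner higher, 1 partner and 2 network genes lower, and 13 family genes higher and 4 lower. Limma-voom and the absence of a filter each called 1 S100 partner higher. The cause of these changes was not tested.

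Replicate numbers did not pair the libraries, since same-numbered deviations correlated at -0.207, -0.122 and 0.072. A replicate block gave 461 genes higher (643 lower), 2 neighbours higher and 0 lower, 3 network genes and 1 limb bud and retinoic acid gene higher, 5 family genes higher in all, and log2 differences of 4.37 for Klk10, 2.53 for Fibin, 5.3 for Otop1 and 1.22 for S100a4. Depth limits Otop1 and Klk9, whose WT counts were at most 8 and 0. Over 142 named genes, 1972 other values kept their call, 196 lost and 65 gained it.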
